A study of Homo sapiens with 6 samples.

Results

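The enzymes described here build purine and pyrimidine nucleotides from simple precursors: PPAT, GART, PFAS, PAICS, ADSL and ATIC of the purine pathway, IMPDH2 at its branch to guanine nucleotides, CAD at the start of pyrimidine synthesis and TYMS, which makes thymidylate. They were taken by symbol, after joining the deposited transcript identifiers to GENCODE genes, as a set drawn up with earlier results of these data known. All 9 were found among the 37192 genes matched, each through 1 counted transcript. Nascent transcription was measured by PRO-seq, which maps RNA polymerases engaged on a gene, and steady-state RNA by sequencing of total RNA depleted of ribosomal RNA. The cells were K562, a human line from a chronic myelogenous leukaemia, untreated and cultured in RPMI-1640 with serum and antibiotics. The 2 PRO-seq and 4 RNA-seq libraries came from cells of a single flask per the methods, so every p-value below measures only the spread between libraries, which may be technical. The ratio of RNA-seq to PRO-seq was taken per length for each transcription unit (TU), as an estimate of relative RNA half-life. Per the paper, PRO-seq signal depends on the rate of elongation as well as that of transcription. The paper also found half-life estimates from these libraries more variable, and further from published estimates, than those from earlier data. The ratio has no unit and was set against the median mRNA.

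Purines are assembled ring atom by ring atom on a ribose phosphate, and several of the enzymes carry out more than one of the steps on a single polypeptide. The pathway ends at inosine monophosphate, from which separate branches lead to adenine and to guanine nucleotides. Pyrimidines are built as a ring first and joined to the ribose phosphate later. Proliferating cells such as leukaemia lines depend on both pathways for RNA and DNA, and several of the enzymes are targets of antimetabolite drugs, TYMS among them.

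Counts on TUs were between 5732780 and 9002746 in an RNA-seq library and were 6993816 and 7245632 in the PRO-seq libraries. Levels are given in TPM, counts per length scaled to the same total in every library, with the exon length for RNA-seq and the span less 1000 bp for PRO-seq. Since each assay has its own scale, a gene's TPM in RNA-seq and in PRO-seq were compared only through the ratio, relative to the median mRNA. The counts behind the 8 enzymes with PRO-seq signal summed to between 2600 and 21822 in RNA-seq and between 436 and 5135 in PRO-seq. All 10 K562 markers on a list of erythroid genes were above 1 TPM in RNA-seq, from 13.2 TPM (HBZ) to 6287 TPM (HBG2). Most mRNAs pass that cut too: a level of 1.16 TPM was at percentile 32.8 of mRNAs with counts in both assays. In PRO-seq the markers ran from 0 TPM (HBE1) to 663 TPM (TFRC). Of 4 markers of other cell types that were matched, 1 was above 1 TPM (EPCAM, 120 TPM in RNA-seq). RNA-seq libraries 1 and 3 were close to each other, as were 2 and 4, with a chi-square per degree of freedom of 1.11 and 1.12 against 1.74 to 2.11 for the other RNA-seq pairs. All pairs differed beyond sampling noise and were kept as separate libraries, although 1 and 3, and 2 and 4, may not be independent. The SDs and p-values below treat the 4 as independent.

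Sequence upstream of the start sites is shown first for 4 enzymes: PPAT and PAICS, which start back to back, ATIC, which holds the letters CACGTG at 2 places, and CAD, the 1 enzyme whose ratio below was under the median mRNA. The windows are 300 bases from RefSeq on GRCh38.p14, 250 before the start site and 50 from it on, written 5′ to 3′ on the gene's strand. Capitals mark CACGTG, the E-box read by MYC and related factors, and CCAAT or its reverse complement, read by NF-Y. PPAT is at chr4:56435566-56435865 on the minus strand, PAICS at chr4:56436010-56436309 on the plus strand, ATIC at chr2:215311809-215312108 on the plus strand and CAD at chr2:27217119-27217418 on the plus strand.
PPAT: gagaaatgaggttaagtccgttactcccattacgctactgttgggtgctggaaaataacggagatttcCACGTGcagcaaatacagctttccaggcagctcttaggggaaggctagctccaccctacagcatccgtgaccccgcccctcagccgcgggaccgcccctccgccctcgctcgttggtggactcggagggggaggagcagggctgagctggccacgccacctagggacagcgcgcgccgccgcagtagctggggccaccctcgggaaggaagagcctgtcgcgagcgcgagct
PAICS: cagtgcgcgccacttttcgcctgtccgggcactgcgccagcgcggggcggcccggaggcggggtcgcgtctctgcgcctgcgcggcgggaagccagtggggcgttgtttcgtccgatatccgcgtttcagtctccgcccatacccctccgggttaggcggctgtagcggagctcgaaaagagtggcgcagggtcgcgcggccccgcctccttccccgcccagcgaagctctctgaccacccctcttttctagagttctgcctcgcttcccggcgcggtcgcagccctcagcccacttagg
ATIC: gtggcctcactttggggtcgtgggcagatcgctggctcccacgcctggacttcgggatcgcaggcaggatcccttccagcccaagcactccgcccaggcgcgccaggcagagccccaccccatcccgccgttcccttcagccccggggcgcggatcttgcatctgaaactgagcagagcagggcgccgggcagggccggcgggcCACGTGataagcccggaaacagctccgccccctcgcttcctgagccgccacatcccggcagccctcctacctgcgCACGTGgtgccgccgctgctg
CAD: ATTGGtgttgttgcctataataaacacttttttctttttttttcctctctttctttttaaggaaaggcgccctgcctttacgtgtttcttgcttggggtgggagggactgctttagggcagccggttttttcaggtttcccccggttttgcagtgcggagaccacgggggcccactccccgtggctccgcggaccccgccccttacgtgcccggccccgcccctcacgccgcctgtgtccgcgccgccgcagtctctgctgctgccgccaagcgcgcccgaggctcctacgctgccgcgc

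RefSeq windows were matched for 7 of the 9 enzymes, 11 windows in all. The 2 not matched were ADSL and IMPDH2. An enzyme was counted for a motif if any of its windows held it, and PAICS and GART had more than 1 window. The shares over all windows are per single window, so they are not matched to these counts of enzymes. CACGTG was searched on both strands and was found for 3 of the 7 (ATIC, PAICS and PPAT) and in 7.26% of all 35116 windows. In ATIC it began 46 bases before and 29 bases after the start site. In PPAT it began 182 bases before the start site. The PAICS window shown holds no CACGTG. Another PAICS window in RefSeq, whose start site is 137 bp from that of PPAT, holds 1 copy, which is the same site as in PPAT, chr4:56435792-56435797. The 3 genes thus carry 3 sites between them.

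The other motifs searched were more common among all windows. GGGCGG, the GC box of SP1-type factors, was found for 6 of 7 and in 45.0% of all windows. GGCGGGA, which resembles an E2F site and can overlap GGGCGG, was found for 4 of 7 (ATIC, GART, PAICS and TYMS) and in 15.4% of all windows. CCAAT was found for CAD and GART and in 34.6% of all windows. CCGGAAG, an ETS-type motif, and TATAAA were found only for GART among the 7, and in 10.3% and 11.5% of all windows. The window shown for CAD has CCAAT, as its reverse complement, at its first base, 250 bases before the start site. The GART matches other than CCAAT all lay in the same window, chr21:33542068-33542367, with its start site at 33542117. The GART windows with start sites at 33542892 and 33542889 held only CCAAT. Which of these windows belongs to the counted GART transcript was not tested. Every motif was searched on both strands. A match describes the letters only, and binding was not measured.

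Across the 8 enzymes measured in both assays, RNA-seq levels ranged from 52.7 TPM (CAD) to 573 TPM (IMPDH2) and PRO-seq levels from 41.3 TPM (PFAS) to 327 TPM (IMPDH2). For 7 of them the ratio of RNA-seq to PRO-seq was above that of the median mRNA, by 1.98-fold to 2.72-fold. CAD was the exception, at 0.755-fold of the median mRNA. ADSL had RNA-seq counts but no PRO-seq count, and no ratio was taken for it.

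PPAT transfers the amide group of glutamine to the ribose phosphate, the committed step of purine synthesis. It was counted as ENST00000264220 (chr4:57259528-57301781, minus strand, 11 exons, GRCh37 as for every gene position below). A pseudogene on the opposite strand lies over 21033 bp of the PPAT span, or 49.8%, and over none of its exon bases. That pseudogene had 2 RNA-seq and 4 PRO-seq counts. The strand option of the counter is unknown here, and the part of this overlap in the PPAT counts was not tested. PPAT was measured as follows. Its RNA-seq level was 71.3, 75.1, 75.1 and 79.9 TPM in libraries 1 to 4. Its PRO-seq level was 58.8 and 59.3 TPM. The PRO-seq libraries lay closer together than the RNA-seq libraries. The mean levels were 75.4 TPM ± 3.53 (SD, n = 4) in RNA-seq and 59.0 TPM ± 0.379 (SD, n = 2) in PRO-seq. The log2 ratio was 0.99 ± 0.058 (SE) above the median mRNA, 1.98-fold (Benjamini-Hochberg adjusted p = 2.4e-16 in edgeR's quasi-likelihood test). It lay at percentile 73.0 of the 8733 mRNAs tested.

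GART is a trifunctional enzyme that carries out several of the early and middle steps. The counted transcript, ENST00000424203 (chr21:34876240-34915198, minus strand, 22 exons), is annotated as a target of nonsense-mediated decay, but 98.4% of the bases of the canonical transcript lie in its exons. GART read 445, 452, 447 and 453 TPM in the 4 RNA-seq libraries and 260 and 259 TPM in PRO-seq. The libraries lay close together in both assays. The means were 449 TPM ± 4.08 (SD, n = 4) and 259 TPM ± 0.739 (SD, n = 2), at percentiles 97.9 and 98.0 of the 14965 mRNAs with counts in both assays. Its log2 ratio was 1.43 ± 0.035 (SE) above the median mRNA, 2.70-fold (edgeR adjusted p = 3.5e-26). The start site is 146 bp from that of SON, a splicing cofactor gene on the opposite strand, which had summed levels of 49.6 TPM in RNA-seq and 233 TPM in PRO-seq.

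PFAS uses glutamine for the fourth step. It was counted as ENST00000314666 (chr17:8152607-8173804, plus strand, 28 exons) and had the fewest PRO-seq counts of the 8 enzymes, 436 in all. RNA-seq gave 62.1, 59.4, 60.0 and 62.0 TPM and PRO-seq 41.5 and 41.1 TPM. It was the lowest of the 8 in PRO-seq, below PPAT in both libraries. The means were 60.9 TPM ± 1.36 (SD, n = 4) and 41.3 TPM ± 0.294 (SD, n = 2). The log2 ratio exceeded that of the median mRNA by 1.20 ± 0.072 (SE), 2.29-fold (edgeR adjusted p = 4.2e-16).

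PAICS carries out the sixth and seventh steps. Its counted transcript, ENST00000512576 (chr4:57302426-57330744, plus strand, 9 exons), starts 645 bp from that of PPAT on the opposite strand. In RNA-seq it read 176, 182, 184 and 185 TPM and in PRO-seq 124 and 109 TPM. The PRO-seq libraries were further apart than those of PPAT. The means were 182 TPM ± 3.76 (SD, n = 4) and 117 TPM ± 11.1 (SD, n = 2). The log2 ratio was 1.28 ± 0.049 (SE) above the median mRNA, 2.42-fold (edgeR adjusted p = 4.4e-21). PAICS was above PPAT in every library of both assays. When each RNA-seq library was set against each PRO-seq library, the 8 log2 ratios ran from 1.14 to 1.40 for PAICS and from 0.91 to 1.07 for PPAT, without overlap.

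ADSL splits off fumarate at the eighth step and again on the way to adenine nucleotides. The counted transcript, ENST00000637669 (chr22:40742528-40783493, plus strand, 15 exons), is annotated as a target of nonsense-mediated decay and covers 33.6% of the bases of the canonical transcript. It had 78, 99, 67 and 76 RNA-seq counts, or 10.4, 12.5, 13.3 and 13.2 TPM, and 0 counts in both PRO-seq libraries. As counted, it was the lowest of the 9 in RNA-seq, at 12.3 TPM ± 1.34 (SD, n = 4), and its highest library was below the lowest of CAD. That level divides by all 1927 exon bases, of which 69.3% lie under a same-strand gene, so the place of ADSL among the enzymes is uncertain. A count of 0 allows up to 3 counts in a library, for counting error only.

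A protein-coding read-through gene on the same strand, ENSG00000284431, lies over 40961 bp of the counted ADSL span, or 99.99% of it, and over 69.3% of its exon bases. ENSG00000284431 itself had 87 RNA-seq and 0 PRO-seq counts. SGSM3, which follows on the same strand and overlaps 41.2% of the ADSL span, had 6 RNA-seq and 2 PRO-seq counts. SGSM3-AS1 on the opposite strand had 0 RNA-seq and 21 PRO-seq counts. Records that fell on more than 1 TU stood in an ambiguous row of the files, 4.64% to 4.68% of the records on 1 or more TUs in RNA-seq and 6.54% or 6.68% in PRO-seq. Of 1168 TUs lying wholly inside a larger TU of the same strand, 1.28% had at least 10 PRO-seq counts, against 24.8% of 2894 TUs inside a TU of the opposite strand. In RNA-seq the shares went the other way, 45.9% against 17.2% with at least 10 counts. Where the exons themselves lay nearly wholly inside those of another TU, 10.3% of 263 TUs on the same strand and 17.6% of 148 on the opposite strand had at least 10 RNA-seq counts. The part of this overlap in the ADSL counts of either assay was not tested. Among the other 8 enzymes no counted gene overlapped on the same strand.

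ATIC completes the purine ring in the last pair of steps. It was counted as ENST00000236959 (chr2:216176782-216214487, plus strand, 16 exons). ATIC read 90.1, 102, 102 and 94.2 TPM in RNA-seq and 69.5 and 64.7 TPM in PRO-seq. Libraries 1 and 4 were the lower ones in RNA-seq. The means were 97.1 TPM ± 5.97 (SD, n = 4) and 67.1 TPM ± 3.42 (SD, n = 2). The log2 ratio was 1.17 ± 0.064 (SE) above the median mRNA, 2.25-fold (edgeR adjusted p = 5.3e-17).

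IMPDH2, the rate-limiting enzyme of guanine nucleotide synthesis, had the highest level of the 9 in both assays. Its counted transcript, ENST00000326739 (chr3:49061758-49066831, minus strand, 14 exons), has the shortest span of the set, 5074 bp. It read 594, 560, 587 and 551 TPM in RNA-seq, higher in libraries 1 and 3 than in 2 and 4. In PRO-seq it read 311 and 343 TPM. The means were 573 TPM ± 20.8 (SD, n = 4) and 327 TPM ± 22.1 (SD, n = 2), at percentiles 98.4 and 98.6 of mRNAs. The log2 ratio was 1.45 ± 0.060 (SE) above the median mRNA, 2.72-fold (edgeR adjusted p = 2.7e-20). That was at percentile 81.5 of the mRNAs tested.

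CAD joins the first 3 activities of pyrimidine synthesis in 1 protein. It was counted as ENST00000264705 (chr2:27440237-27466811, plus strand, 44 exons), the longest transcript of the set at 7286 exon bases. In RNA-seq it read 57.2, 50.1, 55.8 and 47.7 TPM, higher in libraries 1 and 3 than in 2 and 4. In PRO-seq it read 102 and 115 TPM, higher in library 2. The means were 52.7 TPM ± 4.52 (SD, n = 4) and 109 TPM ± 9.33 (SD, n = 2). The log2 ratio was -0.41 ± 0.067 (SE) from the median mRNA, 0.755-fold (edgeR adjusted p = 1.9e-06), at percentile 40.1 of the mRNAs tested. The call below the median depended on the settings: CAD was at 0.22 when every TU with at least 1 summed count entered and at 0.99 without the correction for length.

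TYMS methylates deoxyuridylate to thymidylate with a folate cofactor. It was counted as ENST00000323274 (chr18:657653-673578, plus strand, 7 exons). RNA-seq gave 216, 215, 232 and 218 TPM and PRO-seq 172 and 171 TPM. Library 3 was the highest in RNA-seq. The means were 220 TPM ± 7.94 (SD, n = 4) and 171 TPM ± 0.875 (SD, n = 2). The log2 ratio was 1.00 ± 0.055 (SE) above the median mRNA, 1.99-fold (edgeR adjusted p = 4.8e-17). ENOSF1, whose 3′ end overlaps that of TYMS on the opposite strand over 3255 bp, had 1278 RNA-seq and 5060 PRO-seq counts. TYMSOS, an antisense RNA across the start of TYMS, overlaps it over 617 bp and had 106 and 652 counts. Opposite-strand TUs cover 35.4% of the counted TYMS exon bases, and, the strand option of the counter being unknown here, the part of antisense reads in TYMS was not tested.

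The map of the ADSL, TYMS and PPAT regions shows these arrangements to scale.

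**Figure D1:**
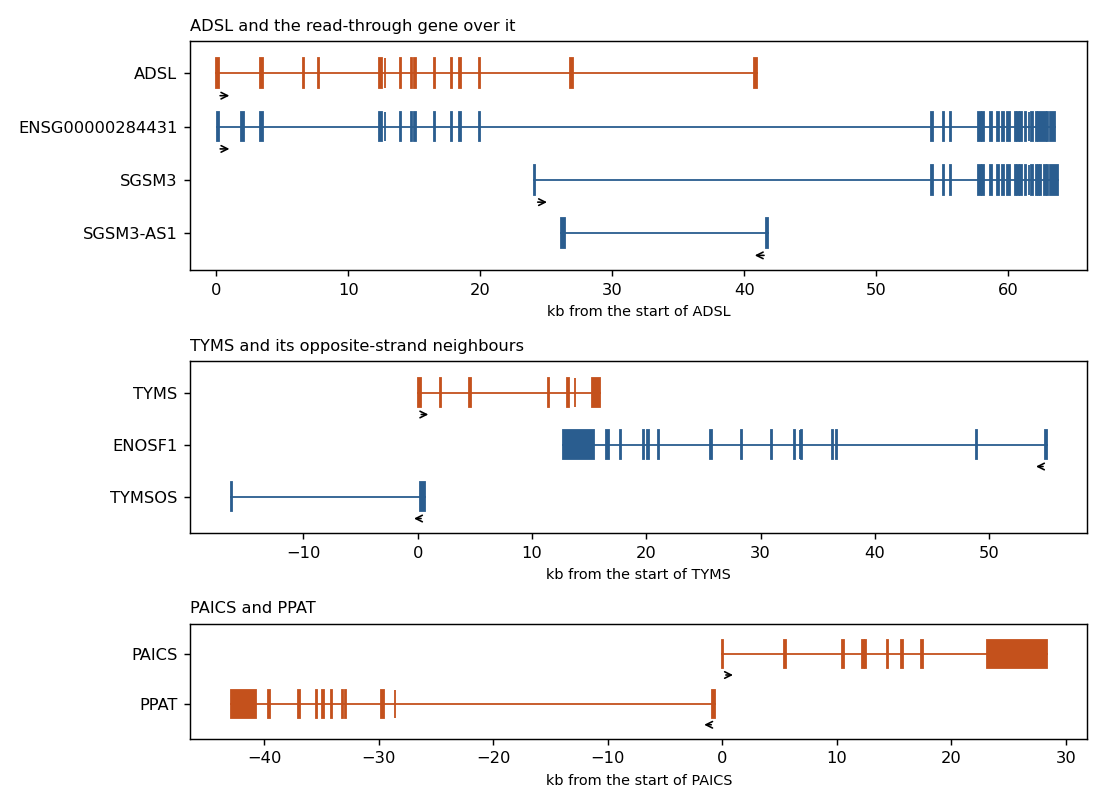
Counted transcripts at 3 regions (GRCh37), drawn to scale in kb from the start of ADSL, TYMS or PAICS; blocks are exons, lines are introns, arrows give the direction of transcription and orange marks the synthesis enzymes. ADSL lies almost wholly under the read-through gene ENSG00000284431, TYMS meets ENOSF1 at its 3′ end, and PPAT and PAICS start 645 bp apart in opposite directions. The opposite-strand pseudogene over PPAT is not drawn.

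Set in order of level, the enzymes kept nearly the same order in both assays. In RNA-seq the order was IMPDH2, GART, TYMS, PAICS, ATIC, PPAT, PFAS, CAD and ADSL, and the library ranges of neighbours did not overlap at any place. The last place of ADSL carries the limits of its overlapped transcript given above. In PRO-seq it was IMPDH2, GART, TYMS, PAICS, CAD, ATIC, PPAT and PFAS. There the ranges of PAICS (109 to 124 TPM) and CAD (102 to 115 TPM) overlapped and those of the other neighbours did not. CAD was at place 5 of 8 in PRO-seq and at place 8 in RNA-seq, and the other 7 enzymes stood in the same order in both. The plot of levels by library shows this shift of CAD.

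**Figure D2:**
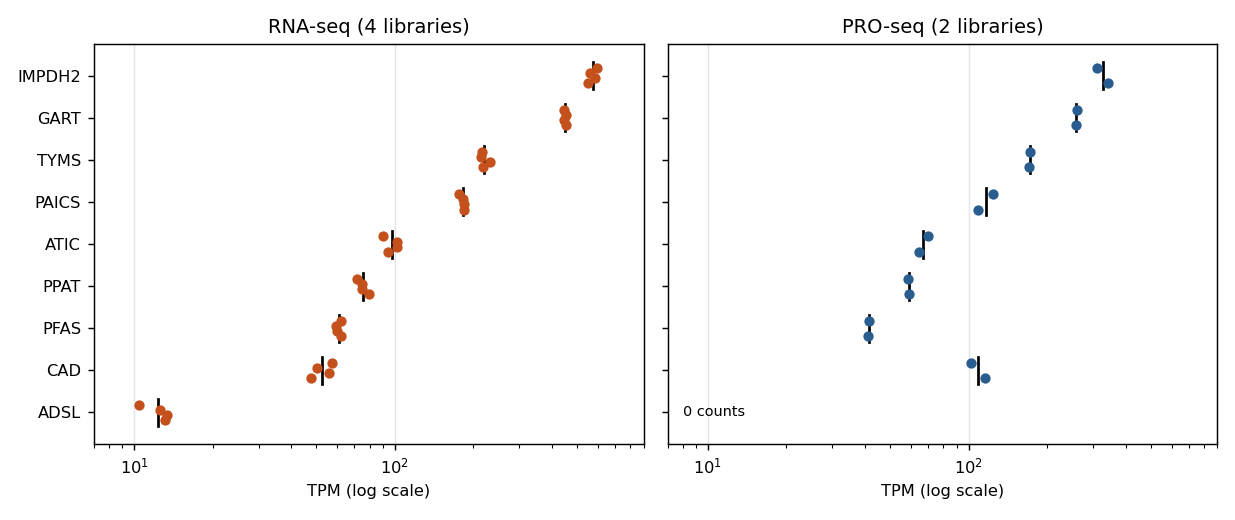
Level of each enzyme in TPM (log scale) in 4 RNA-seq libraries (left) and 2 PRO-seq libraries (right); each point is 1 library and the black bar is the mean. The points of a gene lie close together beside the distance between most genes, CAD sits between PAICS and ATIC in PRO-seq but below PFAS in RNA-seq, and ADSL has 0 counts in PRO-seq.

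Of the 8 enzymes tested, 7 were called above the median mRNA and 1 below, by edgeR's quasi-likelihood test at an adjusted p under 0.05. Over all 9929 TUs tested, 40.4% were called above and 50.0% below, so that a call by itself was common in these data. Among the mRNAs tested, 45.4% were above and 44.9% below. The median log2 ratio of the 8 was 1.18, against 0 for mRNAs by construction and -0.23 for all TUs tested. The upper quartile of mRNAs was at 1.08, which 5 of the 8 passed (IMPDH2, GART, PAICS, PFAS and ATIC). The plot of RNA-seq against PRO-seq levels places the enzymes among all mRNAs tested.

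**Figure D3:**
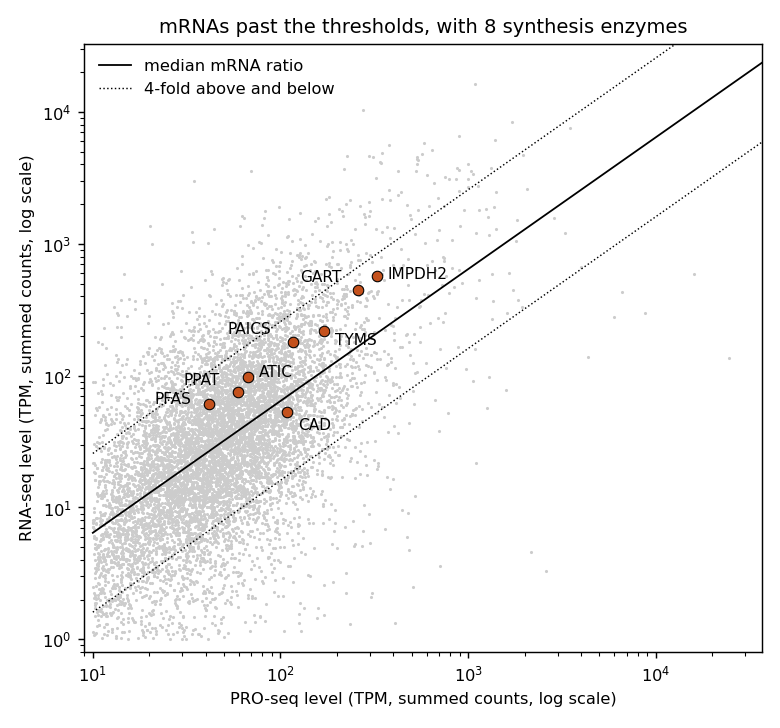
RNA-seq against PRO-seq level in TPM from summed counts (log scales) for the 8733 mRNAs tested (grey) and the 8 synthesis enzymes (orange); the solid line is the ratio of the median mRNA and the dotted lines are 4-fold above and below it. The 7 enzymes above the line lie over it, from PFAS to IMPDH2, and CAD lies under it.

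The 7 enzymes above the median mRNA lay within 0.46 on the log2 scale, from 0.99 (PPAT) to 1.45 (IMPDH2), while their RNA-seq levels spread from 60.9 to 573 TPM. Ordered by ratio they were IMPDH2, GART, PAICS, PFAS, ATIC, TYMS and PPAT, and each overlapped the next over the 8 single-library ratios. All 8 lay within 1.85. The range of the 7 leaves out CAD by its value, so it is a description only. It was 0.61 with a PRO-seq length of the span minus 500 bp and 3.19 without the correction for length. CAD was 1.39 below PPAT, the lowest of the 7, and its single-library ratios (-0.63 to -0.20) did not reach those of PPAT. Whether CAD differs from the other 7 by more than genes differ in general was not tested. The distance from CAD to the lowest of the 7 was between 1.30 and 1.47 under 16 of the 17 other settings tried. Without the correction for length CAD was instead 0.83 above the lowest of them, ATIC.

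**Figure D4:**
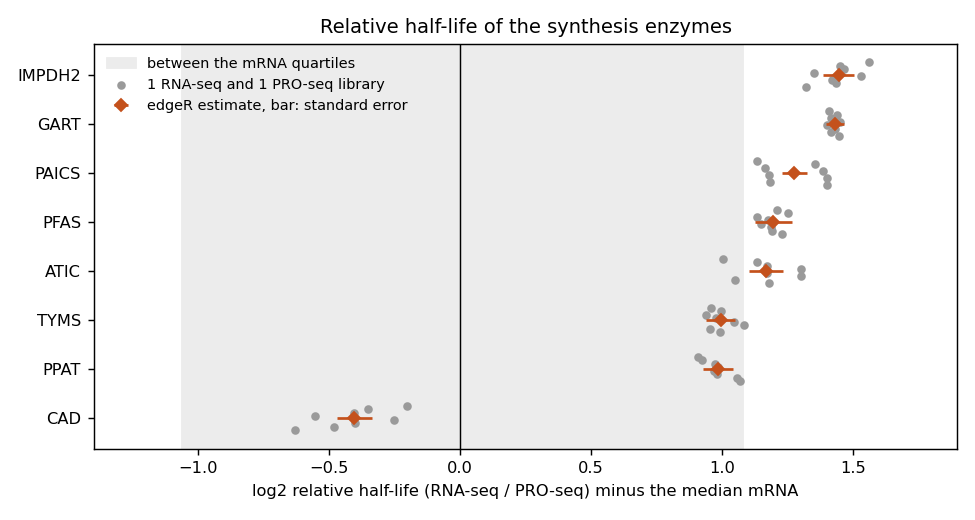
Log2 ratio of RNA-seq to PRO-seq (relative half-life) minus that of the median mRNA for the 8 enzymes; grey points set each RNA-seq library against each PRO-seq library, 8 in all, diamonds the edgeR estimate with its standard error, and the grey band the range between the mRNA quartiles. Neighbours among the upper 7 overlap, and CAD at -0.41 does not reach them.

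Other genes of nucleotide metabolism were taken as 5 lists of 50 genes, of which 48 were matched and 41 tested. Of the 41, 27 were called above the median mRNA, 6 below and 8 neither way, with a median of 0.99. These shares read against the 40.4% above and 50.0% below over all TUs.

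In the other purine list, 5 of 7 tested genes were above and 1 below, with a median of 0.65. PRPS1 and PRPS2 make the ribose phosphate donor, and they were at -0.17 (not called, edgeR adjusted p = 0.076) and 1.49. The counted PRPS1 transcript holds 60.2% of the canonical bases. GMPS, which follows IMPDH2 in the guanine branch, was at 0.65. The range ran from ADSS1, an adenylosuccinate synthase, at -1.77 ± 0.13 (SE) to PRPSAP2, a partner of the PRPS enzymes, at 2.33 ± 0.069 (SE).

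Pyrimidine synthesis went both ways. DHODH and UMPS, which carry out the steps after CAD up to uridine monophosphate, were at -0.73 ± 0.089 (SE) and -0.84 ± 0.070 (SE), and both were called below, so that CAD, DHODH and UMPS all lay under the median mRNA. CMPK1, which phosphorylates the products, was at 2.77 ± 0.045 (SE). With 2 of 4 above and 2 below, the median of the list was 0.04. These calls depend on the settings as that of CAD does: UMPS and DHODH were at 0.94 and 0.56 without the correction for length, and DHODH was not called (-0.11) when every TU with at least 1 summed count entered.

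Folate and one-carbon genes feed purine synthesis and TYMS with their cofactors, and 5 of 10 tested were above and 2 below (median 0.50). SHMT2, the highest of the list, and MTHFD2 are mitochondrial enzymes and were at 2.34 ± 0.11 (SE) and 1.35. Of the 10, 3 were called neither way, among them MTHFD2L at 0.15.

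Deoxynucleotide supply had 7 of 8 above and 0 below (median 1.10). RRM1 and RRM2, the subunits of ribonucleotide reductase, were at 2.80 ± 0.045 (SE) and 0.84. The counted RRM2 transcript is annotated as a target of nonsense-mediated decay and holds 33.1% of the canonical bases, and RRM2 was at 1.57 on the exon bases shared with the canonical transcript. The kinase GUK1 was the highest at 3.93 ± 0.083 (SE). SAMHD1, which degrades deoxynucleotides, was the lowest at -0.07 (not called, edgeR adjusted p = 0.49). Salvage genes, which recycle bases and nucleosides, had 8 of 12 above and 1 below (median 1.10). HPRT1 and APRT were at 1.19 and 1.01, the thymidine kinase TK1 at 1.30, the adenosine kinase ADK at 2.07 and GMPR, which converts guanine to inosine nucleotides, at -0.46 ± 0.055 (SE). The counted HPRT1 transcript holds 40.6% of the canonical bases, and HPRT1 was at 1.11 on the exon bases shared with the canonical transcript. GMPR was at 0.17 when every TU with at least 1 summed count entered, and RRM2, HPRT1 and ADK lay below the median mRNA without the correction for length.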

How the data were processed

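The authors deposited raw read counts per transcript for each library, made with Cutadapt, HISAT2 and HTSeq on GENCODE annotation of GRCh38 (versions, counting mode and strandedness: not given in the sources used here), leaving out the ends of each TU for PRO-seq. Rows that name no TU held 66.5% to 68.6% of the records in RNA-seq and 86.5% or 88.6% in PRO-seq and stayed out of totals and tests. Identifiers were joined to GENCODE lifted to GRCh37 (88.1% of 42371 transcripts), which gave names, lengths, overlaps and the coordinates printed here. Only the promoter windows are on GRCh38.p14, and transcript lengths may differ between the builds.

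TUs with PRO-seq levels over 10 TPM and RNA-seq levels over 1 TPM entered a joint fit of all libraries in edgeR 4.0.16 (R 4.3.3): a quasi-likelihood test with TMM, offsets for length and Benjamini-Hochberg adjustment. Each log2 ratio was centred on the median mRNA. On simulated counts for the 9929 TUs, 90% of 200 changed by 1 on the log2 scale were recovered, with 8 false calls. In the simulation only these 200 differed between the assays and the spread was fixed. The 8 are thus no error rate for the real data, in which 90.4% of TUs were called. DESeq2 (version 1.42.0) and limma (version 3.58.1) were alternatives. The total count of 436 for PFAS and 696 for IMPDH2 in PRO-seq limits their precision. Among the list genes named with a ratio, some had fewer: 109 for SHMT2, 172 for GUK1 and 239 for APRT. The sources used here name no molecular identifiers in the reads, so counting error is taken as a lower limit.

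All 9 enzymes are named, with the highest and lowest gene of each list, further list genes chosen by symbol where tested, and overlapping genes and pseudogenes with at least 10 counts. For 2 genes of the folate list, which enter its counts and median, values are not reported here. The members and lists were chosen with earlier results of these data known. The labels do not say whether replicate numbers pair the assays. Library 1 minus library 2 correlated at -0.0113 between the assays over 9841 TUs. With all cells from a single flask, this value cannot decide whether the numbers pair.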

Additional observations from a re-analysis of the deposited data

Results flagged for a closer look

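Some counts fell on genes that entered no comparison above. ADSL had 320 RNA-seq counts in all but could not be tested, since its PRO-seq count was 0. The read-through gene over it, ENSG00000284431, had 87 RNA-seq counts, and SGSM3-AS1 on the opposite strand of ADSL had 21 PRO-seq counts.

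Processed pseudogenes, spliced copies inserted elsewhere in the genome, can share reads with the gene they come from. Of 8 annotated ones named after the enzymes, 7 of PAICS and 1 of PPAT, 2 had at least 10 counts. PPATP1 had 82 RNA-seq counts (22, 22, 18 and 20) and PAICSP4 had 55 (16, 17, 8 and 14), both with 0 in PRO-seq. PAICSP1 had 5 RNA-seq and 4 PRO-seq counts. Beside them PPAT had 3760 RNA-seq counts and PAICS 15714, so the counts on these copies are small beside those of the enzymes. They do not show how many reads were left uncounted because they matched both a gene and its copy, which was not tested. No RNA-seq library of any of the 9 enzymes stood far enough from the other 3 to pass Dixon's test. TYMS came closest: the gap from its highest library to the next took 0.814 of its range.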

How the results depend on the processing

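PPAT, GART, PFAS, PAICS, ATIC, IMPDH2 and TYMS stayed above the median mRNA and called under all 17 alternatives, between 0.15 (ATIC) and 3.35 (IMPDH2), both without length offsets. Of the alternatives, summing close RNA-seq libraries and using canonical exon bases were added after seeing the data. CAD turned positive under 2. Entering every TU with at least 1 summed count gave 0.22 for CAD, 0.46 for PRPS1, 0.56 for SAMHD1, 0.17 for GMPR, 0 enzymes below, an enzyme median of 1.81, and 6544 TUs above and 7724 below. Dropping the length offsets gave 0.99 for CAD, 2.17 for PRPS1, 0.56 for DHODH, 0.94 for UMPS, -1.20 for RRM2, -1.88 for HPRT1, -2.85 for ADK, 0 enzymes and 15 other listed genes below, and a median of 1.11. Centring on all TUs gave a median of 1.41, 0.055 for PRPS1 and 0.15 for SAMHD1, neither called. PRPS1 was at 0.048 with a PRO-seq length of the span minus 500 bp. Canonical exon bases gave a median of 1.03 and called PRPS1 (-0.23) and SAMHD1 (-0.23) below. PRPS1 was also called below above 20 and 2 TPM (-0.21) and without PRO-seq library 1 (-0.29), and SAMHD1 without length offsets (-0.57). With a replicate block CAD was at -0.38 and no enzyme changed its call. Leaving out each library in turn gave CAD -0.48 to -0.33.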

Other observations

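Like ADSL, several related genes lay under a same-strand TU and had few PRO-seq counts. NME1, a nucleoside diphosphate kinase of the deoxynucleotide list, had 8474 RNA-seq counts (379 TPM) and 1 PRO-seq count, with 99.9% of its counted span under another TU of its strand. NME2 had 11 RNA-seq and 0 PRO-seq counts, with 100% of its span overlapped. DCK, the deoxycytidine kinase, had 1701 and 117 counts, with 76.7% overlapped. These genes and ADSL were not tested against the median mRNA, and the part of the overlap in their counts was not tested. The 41 list genes that were tested had no such overlap over more than 20% of their span.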
